A study of Mus musculus with 9 samples.

Results

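Fatty acid oxidation and its regulation by the peroxisome proliferator-activated receptors (PPARs) were described through 35 genes, taken by symbol from a table of 53465 genes counted in mouse adult fibroblasts. The 35 genes cover the carnitine shuttle, the acyl-CoA dehydrogenases, the later steps of mitochondrial beta-oxidation, auxiliary enzymes for unsaturated fatty acids, the electron transfer flavoprotein (ETF), peroxisomal oxidation, and the PPARs with a coactivator and PPAR targets. Of these, 32 passed the filter on low counts and were tested beside all 14088 genes tested, and Ehhadh, Pdk4 and Ppara did not pass. RNA was sequenced in 9 libraries, with 3 of cells given DPI for 24 h, 3 of cells given DPI for 72 h and 3 of controls. The abbreviation DPI is read here as diphenyleneiodonium, which inhibits flavoenzymes, because the series concerns targeting of a flavin cofactor. The cells are named as mouse adult fibroblasts in every group, with no genotype or other agent given. No source used here gives a dose, a vehicle or when controls were collected, so time in culture cannot be told apart from DPI. Whether replicate libraries are separate cultures is not given either, and p-values then reflect only how these libraries scatter, which may be technical.

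Long-chain fatty acids enter mitochondria as carnitine esters, made by carnitine palmitoyltransferase I on the outer membrane and turned back into acyl-CoAs by carnitine palmitoyltransferase II inside. Beta-oxidation then shortens the acyl-CoA in repeated rounds of dehydrogenation, hydration, a further dehydrogenation and thiolysis. The acyl-CoA dehydrogenases carry FAD and pass their electrons through ETF and ETF dehydrogenase to ubiquinone, so this pathway depends on flavin at several steps. PPARs are nuclear receptors that bind fatty acids and, as partners of retinoid X receptors, raise transcription of many of these enzymes. Fibroblasts oxidise fatty acids less than heart, liver or brown fat, and express mainly the liver form of carnitine palmitoyltransferase I.

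Total counts per library ranged from 15292736 to 17923656, and the 35 genes took between 0.156% and 0.177% of them. Beside the label fibroblast, 11 fibroblast markers were read, of which 8 passed the filter. Their summed level was 9983 to 10385 CPM (a gene's counts as a share of its library's total, scaled between libraries by the TMM method) at DPI 24 h, 9275 to 10607 CPM at DPI 72 h and 5616 to 5846 CPM in controls. It was carried by Col1a1, Col1a2, Vim and S100a4. Pdgfrb lay between 25.6 and 60.0 CPM and Pdgfra between 6.67 and 17.1 CPM. By the test described below, all 8 were called higher at 24 h, beside 12.4% of all genes tested. At 72 h, 4 were called higher and 0 lower, beside 4.73% and 3.83%. Thy1, Lum and Fap did not pass the filter and were at 0 to 5 counts in each library, and Dcn and Col3a1 lay between 0.911 and 6.67 CPM. Adipocyte markers, of which 2 of 10 passed the filter, summed to 2.68 to 3.10 CPM at 24 h, 2.19 to 2.97 CPM at 72 h and 2.24 to 2.71 CPM in controls, and Adipoq and Cidec were at 0 throughout. Hepatocyte markers, 0 of 6 of which passed, reached at most 0.129 CPM. The sums for endothelial markers (1 of 6 passed) were 3.65 to 4.71 CPM at 24 h, 1.10 to 2.16 CPM at 72 h and 1.99 to 2.11 CPM in controls, and those for epithelial markers (2 of 6 passed) were 1.35 to 1.58, 6.44 to 6.67 and 1.38 to 2.17 CPM in the same order. Macrophage markers (1 of 7 passed) summed to 4.34 to 4.93 CPM at 24 h, 2.43 to 3.03 CPM at 72 h and 4.03 to 5.41 CPM in controls, and skeletal muscle markers (2 of 8 passed) to 2.62 to 3.33, 3.09 to 4.98 and 3.33 to 4.82 CPM. The part of these shifts in the results below was not tested, and in bulk RNA fewer cells of a type and less RNA per cell cannot be told apart. Control replicate 2 was set off from controls 1 and 3 on the second principal component of all genes (44.2, against 14.1 in control 1 and 18.0 in control 3) and was the highest control for 20 of the 32 genes tested.

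PPARs bind pairs of the hexamer AGGTCA, so the 250 bases before the annotated start of each gene were searched for it. Promoters came from RefSeq (GRCm38.p6), which gave 32 windows for 30 of the 35 genes. AGGTCA, on either strand, was found for 7 genes, Acadm, Acadvl, Cpt1a, Cpt1c, Echs1, Plin2 and Pparg, and in 14% of all 32851 promoters of that length. A direct repeat (AGGTCA, any 1 base, AGGTCA) was found in 0 of these genes and in 0.0335% of all promoters. The estrogen-related receptor element TNAAGGTCA, which overlaps the hexamer, was found in 0 and in 1.14%. At such shares 32 windows would seldom hold either pattern, so these counts of 0 do not show that such sites are absent. The element TTGCATCA, bound by C/EBP and ATF factors, was found in Echs1 and in 0.791% of all promoters. The windows below are those of 4 of these genes that were called at 24 h (Cpt1a, Acadm and Plin2 higher, Echs1 lower), on the strand of the gene, without bases that GENCODE assigns to an exon, and with AGGTCA, its reverse complement TGACCT, and the reverse complement of TTGCATCA in capitals. They lie at chr19:3323051-3323284 (plus strand), chr3:153944644-153944893 (minus), chr4:86670061-86670309 (minus) and chr7:140116477-140116671 (minus).
Cpt1a: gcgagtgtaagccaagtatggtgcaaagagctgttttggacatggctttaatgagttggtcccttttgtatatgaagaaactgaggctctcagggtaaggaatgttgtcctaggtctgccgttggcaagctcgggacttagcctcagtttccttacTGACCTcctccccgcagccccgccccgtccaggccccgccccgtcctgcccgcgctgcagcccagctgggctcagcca
Acadm: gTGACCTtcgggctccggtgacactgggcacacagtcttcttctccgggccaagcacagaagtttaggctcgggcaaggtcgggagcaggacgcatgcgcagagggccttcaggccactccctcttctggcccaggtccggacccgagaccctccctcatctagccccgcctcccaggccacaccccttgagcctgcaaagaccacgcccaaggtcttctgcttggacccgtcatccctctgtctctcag
Plin2: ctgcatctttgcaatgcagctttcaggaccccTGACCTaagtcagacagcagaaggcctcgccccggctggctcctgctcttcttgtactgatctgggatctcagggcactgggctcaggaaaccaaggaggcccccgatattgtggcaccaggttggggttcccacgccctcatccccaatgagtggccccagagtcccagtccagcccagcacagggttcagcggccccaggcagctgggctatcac
Echs1: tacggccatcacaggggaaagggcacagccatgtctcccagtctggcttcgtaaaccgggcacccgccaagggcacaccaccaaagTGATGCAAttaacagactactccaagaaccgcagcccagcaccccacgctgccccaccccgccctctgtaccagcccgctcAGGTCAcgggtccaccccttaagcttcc
A match of letters is a description of these windows and not evidence of binding. Acadvl, Cpt1c and Pparg, for which the hexamer was also found, were not called at 24 h. For the other genes called at 24 h no hexamer was found, and a link between hexamer and change was not tested. The hexamer stood 94 to 89 bases before the start of Cpt1a, 249 to 244 before that of Acadm and 218 to 213 before that of Plin2, each time on the opposite strand, and 83 to 78 bases before the start of Echs1 on the gene's strand.

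In control cells the level per kilobase of exon differed widely between the genes that passed the filter. Etfa, the alpha subunit of ETF, was highest at 109 ± 8.97 CPM per kb (SD, n = 3), followed by Acadl, Etfb and Acadvl at 38.8, 29.4 and 28.9 CPM per kb. The SDs of these last 3 were 3.05, 4.53 and 4.10, and Etfb and Acadvl did not differ beyond their spread. Plin2, which coats lipid droplets, stood at 22.6 ± 1.89 CPM per kb, and Hadha at 18.6 ± 0.635. Cpt1a stood at 3.86 ± 0.225 CPM per kb, below Cpt2 at 15.5 ± 0.759. At the low end were Acad12 at 0.646 and Ppargc1a at 0.562 CPM per kb, and the 3 genes that did not pass lay at 0.0143 to 0.0753. Among the receptors, Pparg was highest at 14.6 ± 1.83 CPM per kb, Ppard was at 5.61 ± 0.0866 and Ppara at 0.0201 ± 0.0174. The length used merges all annotated exons of a gene, so ranks per kb depend on the annotation. Before division by length, Pparg at 43.2 ± 5.39 CPM and Ppard at 42.1 ± 0.651 CPM did not differ beyond their spread. Hadha then stood at 162 ± 5.55 CPM, Cpt2 at 37.0 ± 1.82 and Cpt1a at 29.5 ± 1.72.

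**Figure D1:**
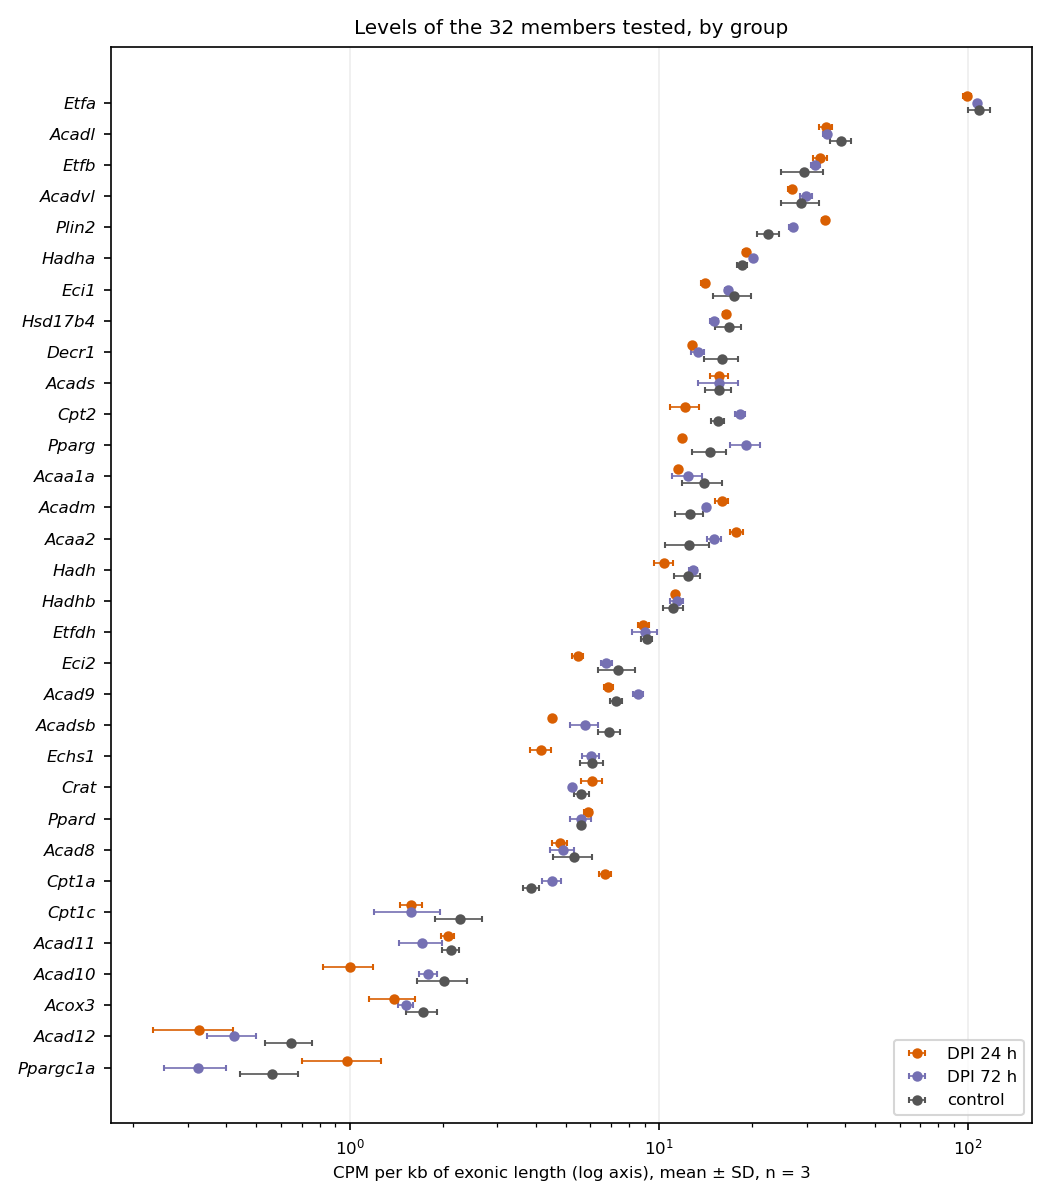
Level of each of the 32 genes tested in CPM per kb of exonic length, on a log axis, as mean ± SD of 3 libraries for DPI 24 h, DPI 72 h and control. Etfa was highest in every group, at 99.1, 107 and 109 CPM per kb in that order, and Ppargc1a and Acad12 were lowest.

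The first comparison asked how these genes differed after 24 h of DPI. Cpt1a rose by 0.79 and Plin2 by 0.60 on the log2 scale, and Acadm, Acaa2 and Ppargc1a rose too, while 9 genes fell, among them Acad10, Acadsb, Echs1, Cpt2 and all 3 auxiliary enzymes. Thus 5 of the 32 genes tested were called higher and 9 lower by edgeR's quasi-likelihood test at an adjusted p under 0.05, or 43.8%. Over all genes tested, 24.7% were called, 12.4% higher and 12.3% lower. The median log2 fold change of the 32 genes was -0.12, beside -0.0056 over all genes tested, and their range was -1.01 to 0.81. Without control replicate 2 the counts were 5 higher and 7 lower. Without DPI 24 h replicate 3 they were 3 higher and 5 lower, without DPI 24 h replicate 1 they were 5 and 6, and the sets of genes concerned are given below.

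After 72 h of DPI few of these genes differed from control. Acad9, Plin2 and Pparg were called higher, by 0.23, 0.26 and 0.39 on the log2 scale, and 0 genes were called lower. That is 9.38% of the 32 genes tested, beside 8.56% of all genes tested (4.73% higher and 3.83% lower). At an unadjusted p under 0.05, 7 genes were higher and 6 lower, beside 3162 of all 14088 genes tested in either direction. DESeq2 and limma voom also called 3 higher and 0 lower. The median log2 fold change was -0.02, beside -0.0050 over all genes, with a range of -0.79 to 0.39. These 3 calls were not firm, since 0 genes were called higher without control 1, control 3, any 1 of the DPI 24 h libraries, or DPI 72 h replicate 1 or 2, and 1 without DPI 72 h replicate 3. Without control replicate 2, 5 were called higher and 2 lower, and 1 was called lower without DPI 72 h replicate 1 or without replicate 2.

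Between the exposures, several genes called lower at 24 h stood higher at 72 h, and 3 called higher at 24 h stood lower. At 72 h against 24 h, 8 genes were higher (Cpt2, Acadsb, Acad9, Acad10, Hadh, Echs1, Eci2 and Pparg) and 3 were lower (Cpt1a, Plin2 and Ppargc1a). Of the 9 genes called lower at 24 h, Eci1, Decr1 and Acad12 were not called in this contrast. This was 34.4% of the 32 genes tested, beside 21.3% of all genes tested (10.1% higher and 11.2% lower). The median was 0.05, beside 0.0019 over all genes, with a range of -1.60 to 0.84. Without DPI 24 h replicate 1 or DPI 72 h replicate 1, 5 genes were higher, and without control replicate 2, which belongs to neither group of this contrast, 10 were higher and 6 lower. The DPI 24 h libraries enter 2 of the 3 comparisons, as do the DPI 72 h libraries and the controls, so the comparisons are not independent. Groups without overlap, named for single genes below, were common. At 24 h, 6 of the 32 genes lay wholly above and 13 wholly below the controls, beside 2872 and 2828 of all 14088 genes tested. At 72 h these were 6 and 6, beside 1962 and 1854. At 72 h against 24 h they were 12 and 7, beside 3166 and 3344.

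**Figure D2:**
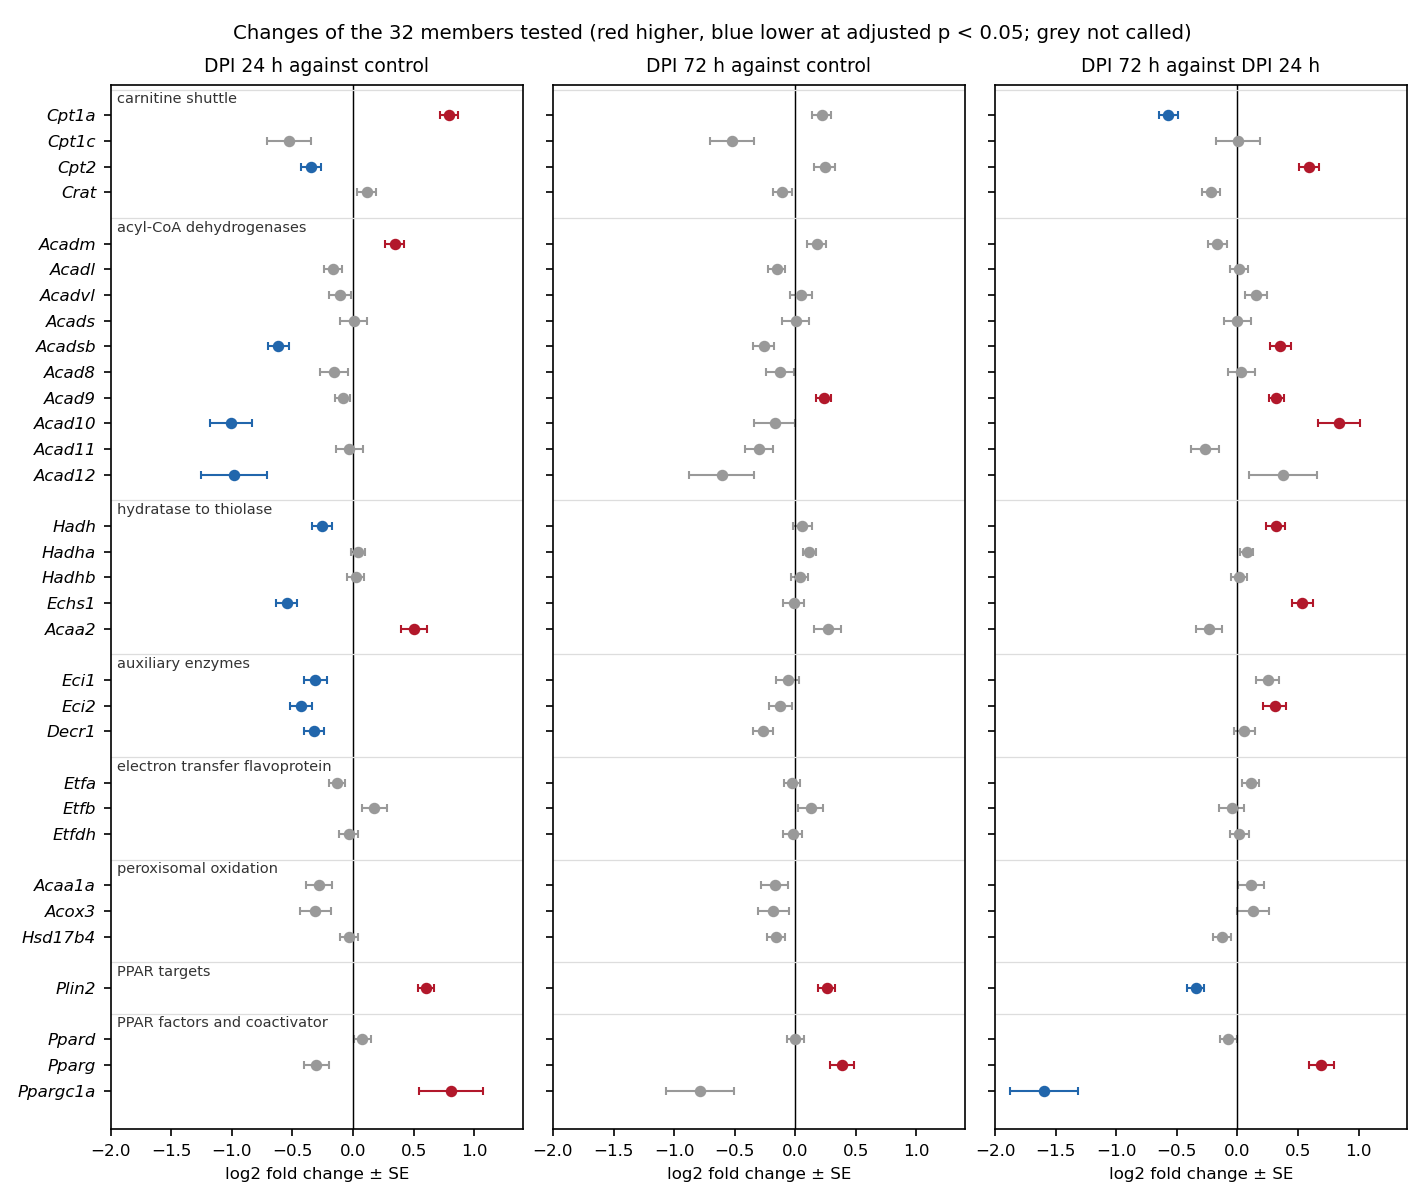
Log2 fold change ± SE of each of the 32 genes tested, by role, for DPI 24 h against control, DPI 72 h against control and DPI 72 h against DPI 24 h, with genes called at an adjusted p under 0.05 in colour. The left panel holds 5 higher and 9 lower genes, the middle panel 3 higher and 0 lower, and the right panel 8 higher and 3 lower.

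In the carnitine shuttle, the outer and inner palmitoyltransferases moved apart at 24 h. Cpt1a (ENSMUSG00000024900, chr19:3322334-3385733), the rate-controlling entry step, had 49.0, 53.5 and 50.7 CPM at DPI 24 h, 31.6, 35.3 and 36.3 CPM at 72 h, and 31.3, 27.9 and 29.4 CPM in controls. All DPI 24 h libraries lay above all others, and the 72 h libraries lay just above the controls without overlap. The log2 fold change was 0.79 ± 0.08 at 24 h (SE, adjusted p = 4.12e-05), 0.22 ± 0.08 at 72 h (adjusted p = 0.118) and -0.57 ± 0.08 at 72 h against 24 h (adjusted p = 3.98e-04). Cpt2 (ENSMUSG00000028607, chr4:107903981-107923610), the inner-membrane enzyme, had 30.4, 25.6 and 31.2 CPM at 24 h, 45.2, 44.3 and 41.8 CPM at 72 h, and 34.9, 37.7 and 38.3 CPM in controls. The 24 h libraries were lowest and the 72 h libraries highest, with no overlap between the 3 groups. Cpt2 fell by 0.35 ± 0.09 at 24 h (adjusted p = 0.0130), differed by 0.24 ± 0.08 at 72 h without passing the test (adjusted p = 0.109), and was higher by 0.59 ± 0.08 at 72 h against 24 h (adjusted p = 6.18e-04). The calls of Cpt1a and Cpt2 at 24 h and at 72 h against 24 h held in all 18 alternative settings. Crat, the carnitine acetyltransferase, and Cpt1c, a form known mainly from brain, were not called. Cpt1c had 8.06 to 9.48 CPM at 24 h, 7.10 to 11.2 CPM at 72 h and 10.6 to 15.0 CPM in controls, with log2 fold changes of -0.53 ± 0.18 (adjusted p = 0.057) and -0.52 ± 0.18 (adjusted p = 0.112). It was called lower at 24 h without control 1 (adjusted p = 0.0306), DPI 72 h replicate 1 (0.0320) or replicate 3 (0.0493), and at 72 h without DPI 72 h replicate 1 (log2 fold change -0.73, adjusted p = 0.0402). The 24 h call was also made by DESeq2 (0.0408) and in 5 further settings (0.0184 to 0.0484), and the 72 h call with no filter on low counts (0.0401). Cpt2 was called higher at 72 h with the length and GC correction (0.29, adjusted p = 0.0425). Crat was called lower at 72 h against 24 h without control replicate 2 (adjusted p = 0.0351) or with only the 6 libraries compared (0.0377).

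**Figure D3:**
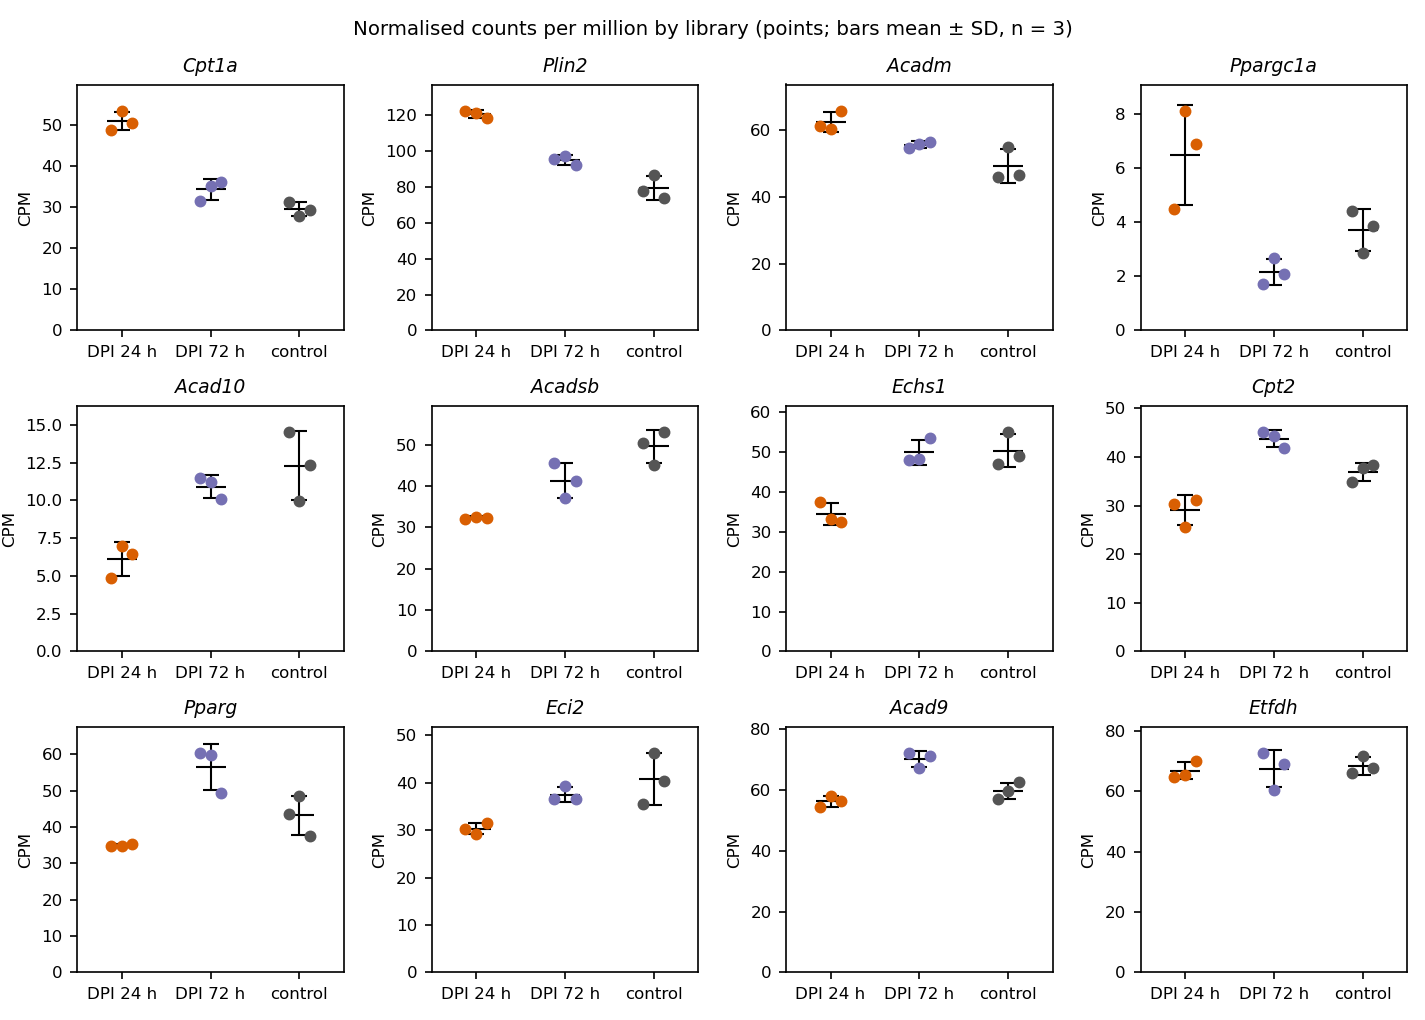
CPM in each library (points) with mean ± SD of 3 libraries for 12 genes, each panel with DPI 24 h, DPI 72 h and control. Cpt1a, Plin2, Acadm and Ppargc1a averaged 51.1, 121, 62.3 and 6.48 CPM at 24 h, above 29.5, 79.4, 49.1 and 3.70 CPM in controls, and Etfdh showed no such separation.

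Of the 10 acyl-CoA dehydrogenases, which carry out the FAD-dependent step, 1 was higher and 3 were lower at 24 h. That is 40% of them, beside 24.7% of all genes tested (12.4% higher and 12.3% lower). Acadm (ENSMUSG00000062908, chr3:153922357-153944632), the medium-chain enzyme, had 61.2, 60.1 and 65.7 CPM at 24 h, 54.5, 55.9 and 56.4 CPM at 72 h, and 46.0, 54.9 and 46.5 CPM in controls. All 24 h libraries lay above the controls, and the 72 h libraries overlapped control 2. It rose by 0.34 ± 0.08 at 24 h (adjusted p = 0.0086) and differed by 0.18 at 72 h (adjusted p = 0.209) and by -0.17 at 72 h against 24 h (adjusted p = 0.166). Without DPI 24 h replicate 3 the 24 h call was lost (adjusted p = 0.053), and without control replicate 2 Acadm was called at 72 h (log2 fold change 0.27, adjusted p = 0.00904) and at 72 h against 24 h (adjusted p = 0.025), the second of these also with only the 6 libraries compared (0.0352). The long-chain enzyme Acadl (chr1:66830839-66863277) had 66.2, 68.8 and 73.1 CPM at 24 h, 70.9, 68.0 and 71.2 CPM at 72 h, and 76.3, 84.6 and 72.6 CPM in controls. Its groups overlapped at 24 h but not at 72 h, and the log2 fold changes of -0.17 (adjusted p = 0.115), -0.15 (0.232) and 0.01 (0.930) did not pass the test. Acadvl, for very long chains, and Acads, for short chains, were likewise not called, with log2 fold changes between -0.11 and 0.15, though Acadvl was called at 72 h against 24 h without control replicate 2 (adjusted p = 0.0264) or with only the 6 libraries compared (0.0301).

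The 3 dehydrogenases that fell at 24 h were Acadsb, Acad10 and Acad12. Acadsb (ENSMUSG00000030861, chr7:131410601-131448944) acts on short branched-chain acyl-CoAs from isoleucine, and had 31.9, 32.6 and 32.4 CPM at 24 h, 45.5, 37.1 and 41.3 CPM at 72 h, and 50.5, 45.1 and 53.1 CPM in controls. The 24 h libraries lay below all others, and 1 of the 72 h libraries lay just above the lowest control. The log2 fold change was -0.62 ± 0.09 at 24 h (adjusted p = 5.66e-04), -0.26 ± 0.09 at 72 h (adjusted p = 0.098) and 0.36 ± 0.09 at 72 h against 24 h (adjusted p = 0.0157). Acad10 (ENSMUSG00000029456, chr5:121621026-121660514) had 4.83, 7.01 and 6.43 CPM at 24 h, 11.5, 11.2 and 10.1 CPM at 72 h, and 14.5, 9.98 and 12.3 CPM in controls. Its 24 h libraries lay below all others, and 72 h and control overlapped. It fell by 1.01 ± 0.17 at 24 h (adjusted p = 0.00184) and was 0.84 ± 0.18 higher at 72 h against 24 h (adjusted p = 0.0061), with -0.17 at 72 h against control (adjusted p = 0.616). Acad12 (ENSMUSG00000042647, chr5:121596775-121618938) lies next to Acad10 on the same strand, and had 2.75, 1.52 and 2.09 CPM at 24 h, 3.16, 2.90 and 2.19 CPM at 72 h, and 4.34, 3.42 and 4.86 CPM in controls. Acad12 had 25 to 76 counts per library, and the split of reads between it and Acad10 was not tested. Both DPI groups lay below the controls without overlap and overlapped each other. Its log2 fold change of -0.98 ± 0.27 at 24 h passed (adjusted p = 0.0230), those of -0.61 ± 0.27 at 72 h (0.210) and 0.38 at 72 h against 24 h (0.392) did not, and the 24 h call was lost without control 1 (0.0505), control 3 (0.0727), DPI 24 h replicate 2 (0.0816) or replicate 3 (0.0703). The Acadsb call at 72 h against 24 h was lost without DPI 24 h replicate 1 (0.057) or DPI 72 h replicate 1 (0.0684) or 3 (0.0508), and without control replicate 2 Acadsb was called at 72 h against control (log2 fold change -0.32, adjusted p = 0.0157), as it was with the length and GC correction (0.0327). Acadsb overlaps Fgfr2 on the other strand, whose log2 fold changes were -0.05, 0.43 and 0.48 in the 3 comparisons, and without a stated strand setting their reads cannot be told apart.

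Acad9 (ENSMUSG00000027710, chr3:36065979-36092853) encodes a dehydrogenase for long chains that is also needed to assemble respiratory complex I. It had 54.3, 58.0 and 56.4 CPM at 24 h, 72.2, 67.1 and 71.3 CPM at 72 h, and 56.9, 59.6 and 62.5 CPM in controls. The 72 h libraries lay above all others, and 24 h and control overlapped. The log2 fold change was -0.09 at 24 h (adjusted p = 0.364), 0.23 ± 0.06 at 72 h (adjusted p = 0.0429) and 0.32 ± 0.06 at 72 h against 24 h (adjusted p = 0.0043). The 72 h call against control was lost without any 1 library other than control 2 (adjusted p 0.054 to 0.151) and in 6 other settings (0.0697 to 0.145), while the call at 72 h against 24 h held in all 18 settings. Acad8 and Acad11 were not called, with log2 fold changes between -0.30 and 0.03, but without DPI 72 h replicate 2 Acad11 was called lower at 72 h against control (-0.44, adjusted p = 0.0327) and against 24 h (-0.40, adjusted p = 0.0224). With the length and GC correction it was called lower at 72 h against control (-0.37, adjusted p = 0.0471).

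In the later steps of mitochondrial oxidation, the subunits of the trifunctional protein did not pass the test while 3 other enzymes did at 24 h. That is 60% of these 5 genes, beside 24.7% of all genes tested. Echs1 (ENSMUSG00000025465, chr7:140105710-140116476), the short-chain enoyl-CoA hydratase, had 37.6, 33.3 and 32.5 CPM at 24 h, 48.0, 48.2 and 53.6 CPM at 72 h, and 47.1, 55.1 and 49.0 CPM in controls. Its 24 h libraries lay below all others, and 72 h and control overlapped. It fell by 0.55 ± 0.09 at 24 h (adjusted p = 0.00103), differed by -0.01 at 72 h (adjusted p = 0.949) and was higher by 0.53 ± 0.09 at 72 h against 24 h (adjusted p = 0.00132), and both calls held in all 18 settings. Hadh (ENSMUSG00000027984, chr3:131233419-131272101), the short-chain hydroxyacyl-CoA dehydrogenase, had 48.3, 55.7 and 51.0 CPM at 24 h, 66.0, 64.7 and 62.2 CPM at 72 h, and 56.6, 68.2 and 60.2 CPM in controls. The 24 h libraries lay just under the lowest control. Hadh fell by 0.26 ± 0.08 at 24 h (adjusted p = 0.0428), differed by 0.06 at 72 h (0.732) and was 0.32 ± 0.08 higher at 72 h against 24 h (0.0191). Its 24 h call held only without control 1 or DPI 24 h replicate 2 among the libraries left out in turn (adjusted p 0.0618 to 0.155 without each of the others), and was lost with only the 6 libraries compared (0.0860). Its call at 72 h against 24 h was lost without DPI 24 h replicate 1 (0.0856) or 3 (0.0703), or DPI 72 h replicate 1 (0.0689) or 2 (0.0614).

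Acaa2 (ENSMUSG00000036880, chr18:74779197-74806208), the mitochondrial thiolase, went the other way from Echs1 and Hadh at 24 h. It had 27.3, 28.0 and 25.5 CPM at 24 h, 24.2, 22.6 and 21.9 CPM at 72 h, and 17.4, 22.5 and 17.0 CPM in controls. All 24 h libraries were above the other groups, and control 2 reached the range of the 72 h libraries. Acaa2 rose by 0.50 ± 0.11 at 24 h (adjusted p = 0.0067), and the log2 fold changes of 0.27 ± 0.11 at 72 h (0.176) and -0.24 ± 0.11 at 72 h against 24 h (0.157) did not pass. Without control replicate 2 both passed (0.41, adjusted p = 0.00661 at 72 h, and adjusted p = 0.0274 at 72 h against 24 h), as they did with the length and GC correction (0.0137 and 0.0325). With only the 6 libraries compared, Acaa2 was called lower at 72 h against 24 h (0.0323). Hadha (chr5:30118304-30155162), the alpha subunit of the trifunctional protein, had 167, 170 and 163 CPM at 24 h, 172, 180 and 175 CPM at 72 h, and 167, 156 and 163 CPM in controls. Its 24 h and control libraries overlapped and its 72 h libraries lay slightly above both, with log2 fold changes of 0.04 (adjusted p = 0.645), 0.12 (0.238) and 0.08 (0.370) that did not pass. Hadhb, the beta subunit, whose RefSeq start lies 273 bases from that of Hadha on the other strand, ranged from 69.2 to 79.5 CPM over the 9 libraries, with log2 fold changes of 0.02, 0.04 and 0.01.

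All 3 auxiliary enzymes, which bring unsaturated fatty acids into beta-oxidation, were called lower at 24 h, beside 12.3% of all genes tested. Their summed level was 107 to 111 CPM at 24 h, 123 to 127 CPM at 72 h and 125 to 160 CPM in controls. The highest of these sums was that of control 2. Eci1 (ENSMUSG00000024132, chr17:24426641-24439348), an enoyl-CoA isomerase, had 30.4, 29.0 and 30.4 CPM at 24 h, 36.3, 34.8 and 35.7 CPM at 72 h, and 32.1, 42.5 and 36.8 CPM in controls. Eci2 (ENSMUSG00000021417, chr13:34977748-35027096), a second isomerase, had 30.3, 29.1 and 31.5 CPM at 24 h, 36.6, 39.3 and 36.5 CPM at 72 h, and 35.5, 46.3 and 40.5 CPM in controls. Decr1 (ENSMUSG00000028223, chr4:15917240-15945507), the dienoyl-CoA reductase, had 50.5, 49.1 and 49.5 CPM at 24 h, 50.3, 50.3 and 54.6 CPM at 72 h, and 57.7, 71.1 and 57.8 CPM in controls. For each gene the 24 h libraries were close together and below every control, and for Decr1 so were the 72 h libraries. The log2 fold changes at 24 h were -0.31 ± 0.09 for Eci1 (adjusted p = 0.0337), -0.43 ± 0.09 for Eci2 (0.0072) and -0.32 ± 0.09 for Decr1 (0.0185). At 72 h they were -0.06, -0.12 and -0.27 and did not pass (0.756, 0.496 and 0.087), and at 72 h against 24 h Eci2 was 0.31 ± 0.09 higher (0.0409) while Eci1 (0.25, adjusted p = 0.089) and Decr1 (0.06, adjusted p = 0.694) did not pass. Without control replicate 2, the Eci1 change at 24 h was -0.20 and lost its call (0.0572), as it did without any other library but control 1 (0.0510 to 0.110), with the replicate block (0.0606) and with only the 6 libraries compared (0.0760). Decr1 lost its call without any 1 DPI 24 h library (0.0519 to 0.0656). At 72 h against 24 h the Eci2 call was lost without control 3 (0.0555) or any 1 DPI library (0.0797 to 0.136), by limma voom (0.0524) and with the replicate block (0.0532). Eci1 was called in that contrast without control 1 (0.0393) or control 2 (0.0115), with the length and GC correction (0.0177) and with only the 6 libraries compared (0.00718). Decr1 was called lower at 72 h with no filter on low counts (0.0484).

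The ETF genes, which take electrons from the dehydrogenases, were not called in any comparison, and 0 of 3 had an unadjusted p under 0.05 in any of them. Over all 14088 genes tested, 5162 had such a p at 24 h, 3162 at 72 h and 4647 at 72 h against 24 h. Etfdh (chr3:79603788-79629500), the ETF dehydrogenase of the inner membrane, had 64.9, 65.5 and 70.0 CPM at 24 h, 72.8, 60.6 and 69.2 CPM at 72 h, and 66.0, 71.8 and 67.7 CPM in controls. The 3 groups overlapped, and the log2 fold changes were -0.04 ± 0.08 (adjusted p = 0.776), -0.02 (0.912) and 0.02 (0.918). Etfa ranged from 176 to 185 CPM at 24 h, 192 to 198 CPM at 72 h and 186 to 218 CPM in controls, with a log2 fold change of -0.13 at 24 h (adjusted p = 0.176). Etfb ranged from 36.2 to 40.1 CPM at 24 h, 36.4 to 38.8 CPM at 72 h and 28.2 to 38.3 CPM in controls. Its log2 fold changes were 0.17 at 24 h (adjusted p = 0.256) and 0.13 at 72 h, and it was called higher at 24 h without control replicate 2 (0.27, adjusted p = 0.0497) and with the length and GC correction (0.28, adjusted p = 0.0293).

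Peroxisomal members were not called either, in edgeR's test, although 2 of the 3 tested had an unadjusted p under 0.05 at 24 h. Such a p at 24 h was held by 5162 of all 14088 genes tested. Acaa1a, a peroxisomal thiolase that overlaps Myd88 on the other strand, had 50.1 to 51.1 CPM at 24 h, 48.0 to 60.2 CPM at 72 h and 53.8 to 71.7 CPM in controls (log2 fold change -0.28 at 24 h, adjusted p = 0.085). Acox3, an acyl-CoA oxidase, changed by -0.31 at 24 h without passing (adjusted p = 0.105), and Hsd17b4, the multifunctional enzyme, had log2 fold changes between -0.16 and -0.03. Acaa1a was called lower at 24 h without control 3 (-0.38, adjusted p = 0.0338), with no filter (0.0165) and with the length and GC correction (0.0479). Acox3 was called lower without DPI 24 h replicate 2 (-0.46, adjusted p = 0.0294) and with the length and GC correction (-0.45, adjusted p = 0.0144). Ehhadh, the bifunctional enzyme of liver peroxisomes, had 2, 2 and 0 counts at 24 h, 0 in each 72 h library, and 0, 0 and 2 counts in controls, too few for a comparison.

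Of the 2 PPAR targets, Plin2 rose and Pdk4 was near the limit of detection. Plin2 (ENSMUSG00000028494, chr4:86648386-86670060) had 122, 121 and 118 CPM at 24 h, 95.8, 97.1 and 92.2 CPM at 72 h, and 77.5, 86.8 and 73.9 CPM in controls. The 24 h libraries were highest, the 72 h libraries lay between, and no group overlapped another. It rose by 0.60 ± 0.07 at 24 h (adjusted p = 1.01e-04) and by 0.26 ± 0.07 at 72 h (adjusted p = 0.0386), and was lower by 0.34 at 72 h against 24 h (log2 fold change -0.34 ± 0.07, adjusted p = 0.0040). The 24 h call and the call at 72 h against 24 h held in all 18 settings, and the 72 h call was lost without any 1 library other than control 2 (adjusted p 0.0697 to 0.140), with upper-quartile scaling (0.0832), with the replicate block (0.0532) and with only the 6 libraries compared (0.124). Pdk4, a kinase that turns off pyruvate dehydrogenase and a common PPAR target in muscle and liver, had 8, 10 and 3 counts at 24 h, 3, 11 and 1 counts at 72 h, and 4, 10 and 0 counts in controls. These counts overlapped and did not pass the filter, so a difference in Pdk4 was not detectable at this depth.

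The receptors and the coactivator differed from each other in their time course. Pparg (ENSMUSG00000000440, chr6:115360951-115490399), the receptor of adipocyte differentiation, had 34.8, 34.8 and 35.4 CPM at 24 h, 60.4, 59.7 and 49.3 CPM at 72 h, and 43.5, 48.4 and 37.6 CPM in controls. The 24 h libraries were lowest and the 72 h libraries highest, without overlap between groups. The log2 fold change of -0.30 ± 0.10 at 24 h just missed the threshold (adjusted p = 0.0537), and those of 0.39 ± 0.10 at 72 h (adjusted p = 0.0397) and 0.69 ± 0.10 at 72 h against 24 h (adjusted p = 7.58e-04) passed. At 24 h Pparg was called lower without control 3 (-0.40, adjusted p = 0.0185) or DPI 72 h replicate 3 (0.0406), and also by DESeq2 (0.0458), with upper-quartile scaling (0.0350), with no filter (0.0117) and with the replicate block alone (0.0457) or with the length and GC correction (0.0426). Its 72 h call was lost without control 1 or 3, any 1 DPI 24 h library, or DPI 72 h replicate 1 or 2 (adjusted p 0.0698 to 0.152), with upper-quartile scaling (0.0643) and with only the 6 libraries compared (0.116). The call at 72 h against 24 h held in all 18 settings. Ppard, the widely expressed receptor, had 43.0, 45.1 and 44.9 CPM at 24 h, 45.1, 38.5 and 42.6 CPM at 72 h, and 41.4, 42.2 and 42.7 CPM in controls. It was not called, with log2 fold changes of 0.07 (adjusted p = 0.484), -0.0012 (0.996) and -0.08 (0.504). Ppara, the receptor that dominates in liver, had 0, 1 and 0 counts at 24 h, 0, 1 and 1 counts at 72 h, and 2, 2 and 0 counts in controls, and was not compared.

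Ppargc1a (ENSMUSG00000029167, chr5:51454250-51567726) encodes PGC-1 alpha, a coactivator of PPARs and of mitochondrial biogenesis, and had the largest difference of the 32 genes between the exposures. It had 4.47, 8.10 and 6.88 CPM at 24 h, 1.70, 2.66 and 2.06 CPM at 72 h, and 4.40, 2.87 and 3.84 CPM in controls. DPI 24 h replicate 1 lay just above the highest control, the other DPI 24 h libraries lay well above it, and all 72 h libraries lay below all others. The log2 fold change was 0.81 ± 0.27 at 24 h (adjusted p = 0.0478), -0.79 ± 0.28 at 72 h (adjusted p = 0.124) and -1.60 ± 0.28 at 72 h against 24 h (adjusted p = 0.00218). The 24 h call was lost without control 2 (0.65, adjusted p = 0.0944) or control 3 (0.0952), DPI 24 h replicate 2 (0.187) or 3 (0.138), or any 1 DPI 72 h library (0.0537 to 0.0673), and in 4 other settings (0.0555 to 0.0902, the replicate block among them at 0.0902). At 72 h Ppargc1a was called lower without control 2 (-0.94, adjusted p = 0.0488). The call at 72 h against 24 h held in all 18 settings.

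Other genes of fatty acid use were read from lists of related roles. Of 14 genes tested for uptake, binding and activation, 6 were higher and 1 lower at 24 h, 3 higher and 0 lower at 72 h, and 1 higher and 3 lower at 72 h against 24 h. These are 50% of the list at 24 h, 21.4% at 72 h and 28.6% between the exposures, beside 24.7%, 8.56% and 21.3% of all genes tested. The median log2 fold change of the list was 0.30 at 24 h and 0.06 at 72 h. The count of higher genes at 24 h was 3 without control 1, control 3 or any 1 DPI 24 h library, and with upper-quartile scaling, since Acsl5, Dbi and Slc27a4 then lost their calls. Acsl3, an acyl-CoA synthetase of lipid droplets, averaged 92.1 CPM at 24 h, 84.3 CPM at 72 h and 62.7 CPM in controls, and rose by 0.56 at 24 h (adjusted p = 4.71e-05) and by 0.43 at 72 h (adjusted p = 6.34e-04). Acsl4, a synthetase with a preference for arachidonate, rose by 0.51 and 0.33, and Fabp5, a fatty acid binding protein, by 0.63 at 24 h, with 80.5 CPM at 24 h, 51.1 CPM at 72 h and 51.9 CPM in controls. Acsf2 fell by 0.26 at 24 h, and Acsl5 rose by 0.26 at 72 h. The fatty acid transporters Slc27a1 and Slc27a4 were lower at 72 h against 24 h (-0.91 and -0.40), as was Fabp5 (-0.66), and Acsl1 was higher (0.37). The Acsl4 call at 72 h held in 15 of 18 settings and was lost, among others, without DPI 72 h replicate 2 (0.0747) or 3 (0.0554). That of Acsl5 held in 13 of 18 settings and was lost, among others, without DPI 72 h replicate 1 (0.0548) or 2 (0.0857) or control 1 (0.0512) or 3 (0.0662). The Acsf2 call held in 16 of 18 settings and was lost, among others, without DPI 24 h replicate 1 (0.0623). That of Slc27a4 at 72 h against 24 h was lost without DPI 72 h replicate 2 (0.0505).

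Among 9 other genes tested of the carnitine shuttle and carnitine supply, 2 were lower at 24 h and 2 higher at 72 h against 24 h, and 0 were called at 72 h against control. These are 22.2%, 22.2% and 0% of the list, beside 24.7%, 21.3% and 8.56% of all genes tested. At 72 h against control, 2 of the 9 had an unadjusted p under 0.05, beside 3162 of all 14088 genes tested. The genes called were the carnitine transporters Slc22a5 (-0.53 at 24 h, adjusted p = 0.00671, and 0.47 at 72 h against 24 h) and Slc22a21 (-0.48 and 0.64). Slc22a5 averaged 12.3 CPM at 24 h, 17.0 CPM at 72 h and 17.7 CPM in controls. The 24 h call of Slc22a21 held in 10 of 18 settings. It was lost, among others, without DPI 24 h replicate 1 or 3, DPI 72 h replicate 1 or 2, or control 2 or 3 (adjusted p 0.0543 to 0.155). At 72 h against 24 h its call was lost without DPI 24 h replicate 1 (0.0596), DPI 72 h replicate 1 (0.0523) or 2 (0.0586), and that of Slc22a5 without DPI 24 h replicate 1 (0.0610) or 3 (0.0586) or DPI 72 h replicate 3 (0.0610).

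Of 17 other peroxisomal genes tested and reported here, 5 were called lower at 24 h, 2 were called lower at 72 h, and 1 was called higher at 72 h against 24 h. That is 29.4% at 24 h and 11.8% at 72 h, beside 24.7% and 8.56% of all genes tested in either direction, and 12.3% and 3.83% called lower. Between the exposures it is 5.88%, beside 21.3% in either direction and 10.1% called higher. The median log2 fold change of these genes was -0.22 at 24 h and -0.12 at 72 h. At 24 h Phyh, the phytanoyl-CoA hydroxylase, fell by 0.82, Acox2, a branched-chain acyl-CoA oxidase, by 0.81, Amacr, a racemase, by 0.61 and Decr2, the peroxisomal dienoyl-CoA reductase, by 0.45. Phyh and Acox2 were also lower at 72 h, by 0.60 and 0.92 on the log2 scale. Scp2, a sterol carrier protein with a thiolase form, was higher at 72 h against 24 h (0.37). The fifth gene lower at 24 h, named after its values were seen, was Pex7. The Amacr call held in 12 of 18 settings and was lost, among others, without any 1 DPI 24 h library or control 2 or 3 (adjusted p 0.0536 to 0.108). Decr2 lost its call without any 1 DPI 24 h library or control 2 (0.0559 to 0.1001). Pex7 lost its call without any 1 DPI 24 h library, DPI 72 h replicate 2 or control 2 or 3 (0.0505 to 0.105), by DESeq2 (0.0536) and in 4 other settings (0.0545 to 0.102). The Phyh call at 72 h held in 11 of 18 settings and was lost, among others, without any 1 DPI 72 h library or control 1 or 3 (0.0569 to 0.102). Scp2 lost its call without DPI 24 h replicate 3 (0.0528).

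**Figure D4:**
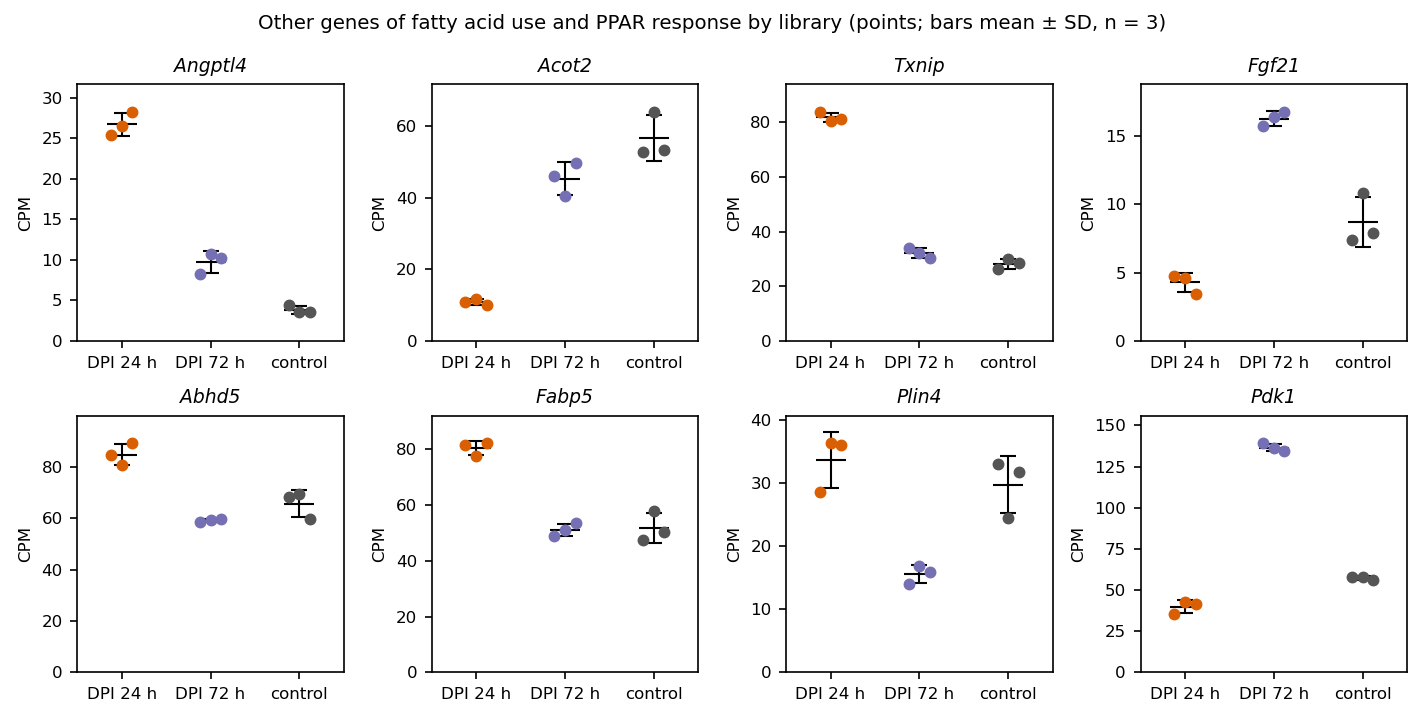
CPM in each library (points) with mean ± SD of 3 libraries for 8 genes outside the 35, each panel with DPI 24 h, DPI 72 h and control. Angptl4 averaged 26.7, 9.71 and 3.84 CPM in that order, Acot2 10.8, 45.3 and 56.6 CPM, and Pdk1 40.0, 137 and 57.3 CPM.

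The list of other PPAR targets held the largest changes among these lists, in both directions, and whether PPARs drove them was not tested. Of 12 tested, 2 were higher and 3 lower at 24 h, 2 and 1 at 72 h, and 2 and 2 at 72 h against 24 h, with a median log2 fold change of 0.10 at 24 h. The shares called were 41.7%, 25% and 33.3%, beside 24.7%, 8.56% and 21.3% of all genes tested. Angptl4, a secreted inhibitor of lipoprotein lipase, had 25.4, 26.5 and 28.2 CPM at 24 h, 8.20, 10.7 and 10.3 CPM at 72 h, and 4.40, 3.53 and 3.58 CPM in controls. All groups were apart, and Angptl4 rose by 2.80 ± 0.14 at 24 h (adjusted p = 2.73e-07) and by 1.34 ± 0.14 at 72 h (adjusted p = 1.51e-04), with -1.46 at 72 h against 24 h. Txnip, which binds thioredoxin, rose by 1.54 at 24 h (81.7 CPM, against 28.1 CPM in controls) and was 1.34 lower at 72 h against 24 h (log2 fold change -1.34). Acot2, a mitochondrial acyl-CoA thioesterase, had 10.8, 11.6 and 9.98 CPM at 24 h, 46.0, 40.4 and 49.5 CPM at 72 h, and 52.6, 63.9 and 53.3 CPM in controls. Its 24 h libraries lay far below all others, with a log2 fold change of -2.39 ± 0.11 (adjusted p = 1.83e-07) at 24 h and 2.07 ± 0.11 at 72 h against 24 h, but Acot2 shares much of its sequence with Acot1, so the split of reads between them is uncertain. Fgf21, a hormone gene driven by PPAR alpha in liver and by ATF4 in stressed cells, averaged 4.28 CPM at 24 h, 16.3 CPM at 72 h and 8.72 CPM in controls, and was lower at 24 h (-1.03, adjusted p = 0.00177), higher at 72 h (0.90, adjusted p = 0.0058) and higher at 72 h against 24 h (1.93). Vnn1, the remaining gene called lower at 24 h, was also lower at 72 h (-1.08, adjusted p = 0.0159). Its 24 h call was lost without DPI 24 h replicate 1 (0.0716) or 3 (0.0728) or control 1 (0.0590) or 3 (0.0687). Its 72 h call was lost without DPI 72 h replicate 1 (0.0544) or 3 (0.0721) or control 1 (0.0503) or 3 (0.0597).

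Of 16 genes tested and reported here for PPAR partners and related regulators, 1 was higher and 2 were lower at 24 h, 1 higher and 0 lower at 72 h, and 0 higher and 1 lower at 72 h against 24 h. The shares called, 18.8%, 6.25% and 6.25%, were below the 24.7%, 8.56% and 21.3% of all genes tested. Lpin1, a phosphatidate phosphatase and coactivator of PGC-1 alpha, rose at both times, with 68.6 CPM at 24 h, 56.7 CPM at 72 h and 35.6 CPM in controls (0.95, adjusted p = 2.67e-05, and 0.67, adjusted p = 6.21e-04). Prkaa2, a catalytic subunit of AMP-activated kinase, fell by 0.61 and Rxrb, a partner of PPARs, by 0.34 at 24 h. Rxrb lost its call without DPI 24 h replicate 3 (0.0579), and Lpin1 its call at 72 h against 24 h (-0.27) without any 1 DPI library or control 3 (0.0519 to 0.151). That Lpin1 call held in 10 of 18 settings.

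Of 9 lipid droplet and lipolysis genes tested, 1 was higher and 0 lower at 24 h, 0 higher and 1 lower at 72 h, and 0 higher and 2 lower at 72 h against 24 h. The shares called were 11.1%, 11.1% and 22.2%, beside 24.7%, 8.56% and 21.3% of all genes tested, and the median log2 fold change at 24 h was -0.09. Abhd5, the activator of the lipase Pnpla2, rose by 0.37 at 24 h, with 84.9 CPM at 24 h, 59.2 CPM at 72 h and 65.8 CPM in controls, and was lower at 72 h against 24 h (-0.52). Plin4, a droplet coat protein, averaged 33.7 CPM at 24 h, 15.6 CPM at 72 h and 29.8 CPM in controls, fell at 72 h by 0.93 (adjusted p = 0.00137), and differed by -1.11 at 72 h against 24 h. Of the 5 thioesterases tested, 1 was lower at 24 h (Acot2, counted in both lists), with 20%, 40% and 60% of this small list called in the 3 comparisons. Acot7 was higher and Acot13 lower at 72 h (0.35 and -0.37), calls lost without any 1 DPI library and without control 1 or 3 for Acot7 or control 2 or 3 for Acot13 (0.0548 to 0.173). Each of these calls held in 7 of 18 settings. At 72 h against 24 h Acot13 was lower by 0.61 on the log2 scale and Acot7 higher by 0.32, the second of these lost without any 1 DPI library but DPI 72 h replicate 3 (0.0711 to 0.133).

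Beside Pdk4, the 5 other kinases and phosphatases of pyruvate dehydrogenase set how much pyruvate competes with fatty acids as a fuel. All 5 were tested, and 60%, 40% and 80% of this small list were called in the 3 comparisons. The shares over all genes tested were 24.7%, 8.56% and 21.3%. At 24 h the phosphatase genes Pdp2 (0.78) and Pdp1 (0.35) rose and the kinase gene Pdk1 fell by 0.52. Pdk1 had 35.5, 42.8 and 41.7 CPM at 24 h, 139, 136 and 134 CPM at 72 h, and 57.9, 58.1 and 56.0 CPM in controls. Its 72 h libraries lay far above all others, with a log2 fold change of 1.25 ± 0.07 at 72 h (adjusted p = 2.19e-06) and 1.77 ± 0.07 at 72 h against 24 h (adjusted p = 1.67e-07). At 72 h against 24 h Pdp2 was lower by 0.65 and Pdp1 by 0.46 on the log2 scale. Pdk3 was called higher at 72 h (0.27), a call that held in 7 of 18 settings and was lost without any 1 library other than control 2 (adjusted p 0.0739 to 0.135). It was also called higher at 72 h against 24 h (0.23), a call that held in 9 of 18 settings and was lost without any 1 DPI library or control 1 (0.0551 to 0.146).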

How the data were processed

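RNeasy columns, TruSeq libraries and an Illumina HiSeq were used, per the labels' protocols. Tools named in the submitters' processing notes, without versions or roles, are STAR, RSEM, edgeR, limma, cutadapt and Trim Galore, with the build GRCm38. No source used here gives the annotation release, the strand setting or any rounding, so overlapping genes on either strand may share counts. This concerned 10 of the 35 genes, which overlap a gene with a mean count of at least 10.

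The authors deposited a table of raw counts per Ensembl gene, used throughout. A further deposited table held 17722 of its genes, all 159498 values of which equalled the raw counts, and entered no fit. IDs with no symbol in GENCODE (105, with 0.00898% of counts) stayed in the library totals.

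Genes were filtered by filterByExpr, which kept at least 99.9% of the counts of each library. Counts were scaled by TMM (factors 0.984 to 1.02). A model with a mean for each group, no replicate block and all 9 libraries was fitted in edgeR 4.0.16 (glmQLFit, glmQLFTest, two-sided, R 4.3.3). Adjusted p-values (Benjamini-Hochberg) cover all 14088 genes tested, and genes under 0.05 were called. SE is the log2 fold change over the root of the quasi-likelihood F. Levels per kb use the merged length of all exons annotated to a gene in GENCODE. With 3 libraries against 3, the smallest two-sided exact permutation p is 0.1, so that test was not used. No 2 libraries were copies of each other.

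The 18 settings tried per gene were other scalings (RLE, upper quartile), no filter, DESeq2 1.42.0, limma voom (limma 3.58.1), only the 6 libraries compared, a replicate block, offsets that correct for GC content and exonic length, both of these together, and each of the 9 libraries left out. Counts were also taken at an adjusted p under 0.01 and at a log2 change of at least 0.5.

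The 35 genes, the further lists and the tests were chosen with earlier results of these data known. Values in every library are given for each gene of the 35 called in at least 1 comparison and for 11 chosen by name, and of each further list up to 4 called genes with the smallest adjusted p per comparison are named. Some genes of 2 further lists are not reported here and enter no count of those lists. Depth per library is the total count, and counting error is larger for genes of few counts.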

Additional observations from a re-analysis of the deposited data

Results flagged for a closer look

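For 11 of the 32 genes tested, the 2 exposures differed from each other by the test of that difference itself (DPI 72 h minus DPI 24 h, edgeR adjusted p under 0.05). That is 34.4%, beside 21.3% of all genes tested. Lower at 72 h than at 24 h were Ppargc1a (log2 difference -1.60), Cpt1a (-0.57) and Plin2 (-0.34). Higher at 72 h than at 24 h were Acad10 (0.84), Pparg (0.69), Cpt2 (0.59), Echs1 (0.53), Acadsb (0.36), Acad9 (0.32), Hadh (0.32) and Eci2 (0.31). Cpt2 and Pparg stood below the controls at 24 h and above them at 72 h in every library, and Ppargc1a stood above them at 24 h and below them at 72 h. Against control, Cpt2 at 72 h (edgeR adjusted p = 0.109), Pparg at 24 h (0.0537) and Ppargc1a at 72 h (0.124) did not pass the test. Over all 14088 genes tested, 2872 lay wholly above and 2828 wholly below the controls at 24 h, and 1962 and 1854 at 72 h. The controls were collected at a time that is not given, so these differences cannot be told apart from time in culture.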

How the results depend on the processing

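Over 18 alternative settings and 3 comparisons, no log2 fold change of a gene of the 35 passed the test in the opposite direction to its main value. At 24 h, 8 of 14 calls held in every setting (Cpt1a, Cpt2, Acadsb, Acad10, Echs1, Acaa2, Eci2 and Plin2), at 72 h 0 of 3 did, and at 72 h against 24 h 8 of 11 did (Cpt1a, Cpt2, Acad9, Acad10, Echs1, Plin2, Pparg and Ppargc1a).

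At 24 h, 5 genes were called higher and 9 lower. An adjusted p under 0.01 left 4 lower, and so did a log2 change of at least 0.5. With 1 library left out, 3 to 5 were higher and 5 to 9 lower, and the length and GC correction and the fit with no filter each called 12 lower. At 72 h, 3 were higher and 0 lower. The count of higher genes was 0 with upper-quartile scaling, with only the 6 libraries compared, at an adjusted p under 0.01 and at a log2 change of at least 0.5, and 0 to 5 with 1 library left out. The count of lower genes was 2 with the length and GC correction and with no filter, 1 with the replicate block and that correction together, and 0 to 2 with 1 library left out. At 72 h against 24 h, 8 were higher and 3 lower. An adjusted p under 0.01 left 5 higher, a log2 change of at least 0.5 left 4 higher, fitting only the 6 libraries compared gave 6 lower, and leaving out 1 library gave 5 to 10 higher and 3 to 6 lower. The cause of these shifts was not tested, except that stricter thresholds leave fewer calls by construction.

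With the replicate number as a block, the counts were 4 higher and 9 lower at 24 h, 1 higher at 72 h, and 7 higher and 3 lower at 72 h against 24 h. No source used here says that the numbers pair the libraries. Deviations of same-numbered libraries correlated between -0.0925 and 0.0027, and those of differently numbered libraries between -0.0799 and 0.0943. With 3 libraries per group, these correlations cannot show whether the libraries were paired.

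The median log2 fold change of the 32 genes was -0.18 to -0.07 at 24 h, -0.07 to 0.03 at 72 h and 0.03 to 0.10 at 72 h against 24 h over the settings. The 72 h median turned positive without control replicate 2. Ehhadh, Pdk4 and Ppara had 0 to 11 counts per library, too few for a comparison at this depth.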
